A study of Mus musculus with 15 samples.

Results

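The 9 genes *Postn*, *Tnc*, *Sparc*, *Spp1*, *Thbs1*, *Fn1*, *Timp1*, *Lox* and *Plau*, which encode matricellular and tissue remodeling proteins, were followed in the conjunctiva of mice with conjunctivitis evoked through inflamed skin. They were taken by gene symbol from a table of 55487 genes, of which 33331 had a count in at least 1 library and 19006 were tested, and all 9 passed the filter on low counts. RNA-Seq had been performed on 15 libraries, 5 from each of 3 groups. All 15 came from wild-type mice labelled BALC/c (BALB/c in the study's text), aged 9 to 12 weeks in the study's methods, whose skin had been sensitized with MC903 + OVA (MC903 is the vitamin D analog calcipotriol, which inflames the skin, and OVA is ovalbumin) over 7 days. The eyes were then challenged daily from day 18 to day 24. The PBS group received PBS in the eye, so it shared the skin sensitization and lacked the ocular antigen, and no antibody is given for it in the sources used here. The isotype group was challenged with OVA and received an isotype control antibody. The anti–IL-4Rα group was challenged with OVA and received an antibody that blocks IL-4Rα, the receptor chain shared by IL-4 and IL-13. Both antibodies were given at 25 mg/kg on days 10, 14, 18 and 21. The labels do not say whether a library came from 1 animal or from pooled tissue, and they tie no library to a cage or day, so p-values measure the spread between libraries, whatever its source.

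Matricellular proteins are secreted into the extracellular matrix, where they modulate how cells attach, move and respond to growth factors rather than building the scaffold itself. Periostin (*Postn*) and tenascin C (*Tnc*) are known to be produced in type 2 inflammation and in healing tissue, fibronectin (*Fn1*) forms the provisional matrix on which cells migrate, and proteases and their inhibitors then cut, release and protect that matrix. In the conjunctiva these proteins lie mainly in the stroma beneath the epithelium, and IL-4 and IL-13 are known to act on stromal fibroblasts through IL-4Rα and the transcription factor STAT6.

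The libraries held 48622246 to 87745024 counts each. Levels are given as CPM, counts per 1000000 normalized counts of a library, and comparisons between genes as FPKM, which divides CPM by exon length in kilobases. The defining keratins and the mucin of conjunctival epithelium were present in every library, with *Krt4* at 516 to 1179 CPM, *Krt13* at 554 to 1179 CPM and *Muc5ac* at 994 to 2024 CPM, and 5 corneal genes summed to 701 to 1459 CPM, led by *Aldh3a1* at 407 to 1078 CPM, with the corneal keratin *Krt12* at 0.695 to 47.2 CPM. Other tissue was present too. Summed over 12 lacrimal gland genes, led by the mucin-like gene *Mucl2* and the odorant-binding protein gene *Obp1a*, the level ran from 31.6 to 63652 CPM in PBS libraries, from 80.3 to 39842 CPM in isotype libraries and from 1504 to 199787 CPM in anti–IL-4Rα libraries. This sum exceeded 30000 CPM in 7 libraries, namely PBS replicate 5, isotype replicates 1 and 4 and anti–IL-4Rα replicates 1, 2, 4 and 5. In a bulk sample, fewer cells of a type and less RNA per cell cannot be told apart.

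The promoters of the members that changed most are shown because their RNAs rose and fell in the same comparisons between groups and because STAT6 and AP-1 are known regulators of such genes. RefSeq promoter windows (GRCm38.p6, 250 bases before and 50 bases after a transcription start) were at hand for 5 of the 9 genes (*Postn*, *Tnc*, *Spp1*, *Timp1* and *Sparc*), in 8 windows. None of the 8 windows held TTCNNNNGAA, the spacing that STAT6 prefers, TTCNNNGAA, the spacing of other STAT proteins, or TGANTCA, the AP-1 element, on either strand. Among all 32817 mouse windows, 6.94%, 8.29% and 7.81% held the respective letters, so absence was the usual state, and it says only that these letters are not within these windows. The letters TATAAA, added to the search after the windows had been seen, were held by 13.6% of all windows on either strand. In the upstream bases below, read 5′ to 3′ on the strand of the gene, capitals mark them.
Postn, chr3:54360857-54361106, plus strand: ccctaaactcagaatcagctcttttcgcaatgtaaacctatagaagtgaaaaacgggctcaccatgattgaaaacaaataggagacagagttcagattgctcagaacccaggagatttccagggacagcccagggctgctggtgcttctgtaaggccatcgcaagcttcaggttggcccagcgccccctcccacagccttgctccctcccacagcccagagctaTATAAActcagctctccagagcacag
Tnc, chr4:64047016-64047265, minus strand: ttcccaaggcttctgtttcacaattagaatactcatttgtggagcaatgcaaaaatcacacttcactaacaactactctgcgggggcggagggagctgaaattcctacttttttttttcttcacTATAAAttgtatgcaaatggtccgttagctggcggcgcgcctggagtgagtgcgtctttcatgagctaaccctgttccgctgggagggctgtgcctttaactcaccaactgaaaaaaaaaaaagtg
Timp1, chrX:20869916-20870165, plus strand: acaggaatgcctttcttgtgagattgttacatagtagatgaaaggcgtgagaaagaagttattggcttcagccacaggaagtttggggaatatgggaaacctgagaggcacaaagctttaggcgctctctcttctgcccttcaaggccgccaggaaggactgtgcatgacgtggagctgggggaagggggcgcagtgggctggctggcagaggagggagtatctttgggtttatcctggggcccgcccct
In this *Postn* window the letters began 26 bases before the transcription start, and in this *Tnc* window 126 bases before it. The *Timp1* window had none. Of the windows not shown, the other for *Postn* held none, and 1 for *Spp1* held the letters 211 bases before its start. The other *Tnc* window overlaps this one and holds the same site, 205 bases before its own start.

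Positions are on GRCm38 from the GENCODE M21 annotation, which lists all 9 genes as protein coding, and that of *Lox* is given with its values. *Postn* spans bases 54361109 to 54391037 of chromosome 3 on the plus strand, and *Tnc* spans 63959785 to 64047015 of chromosome 4 on the minus strand. *Fn1* spans 71585520 to 71653200 of chromosome 1 (minus), *Spp1* 104435118 to 104441050 of chromosome 5 (plus) and *Thbs1* 118111876 to 118127133 of chromosome 2 (plus). *Timp1* spans 20870166 to 20874735 of chromosome X (plus), *Plau* 20836660 to 20843385 of chromosome 14 (plus) and *Sparc* 55394500 to 55423183 of chromosome 11 (minus). Values are summed over all exons of a gene. *Timp1* lies within the span of *Syn1*, a neuronal gene on the opposite strand that held 16 to 70 counts per library, and their exons do not overlap. *Tnc*, *Fn1*, *Spp1*, *Thbs1* and *Lox* each share exonic bases with a minor transcript that held at most 7 counts in any library.

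*Sparc* had the highest level per length in every group, and *Spp1* the lowest. In the PBS group *Sparc*, a collagen-binding protein also called osteonectin, read 160 ± 16.6 FPKM (SD, n = 5), followed by *Postn* at 36.1 ± 3.28, *Fn1* at 30.9 ± 3.76, *Plau* at 20.3 ± 2.23, *Tnc* at 9.15 ± 1.57, *Thbs1* at 8.14 ± 0.988, *Lox* at 4.96 ± 0.50, *Timp1* at 3.47 ± 0.643 and *Spp1* at 3.16 ± 0.653 FPKM. Neighbors whose libraries overlapped were *Postn* with *Fn1*, *Tnc* with *Thbs1*, and *Timp1* with *Spp1*. In the isotype group *Timp1* stood in place 5 instead of place 8, at 23.3 ± 12.4 FPKM, next to *Tnc* at 22.2 ± 7.02 FPKM, and each neighbor below *Postn* overlapped the next. In the anti–IL-4Rα group the order of the 9 genes was that of the PBS group, with *Timp1* back in place 8 at 4.10 ± 0.58 FPKM.

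**Figure D1:**
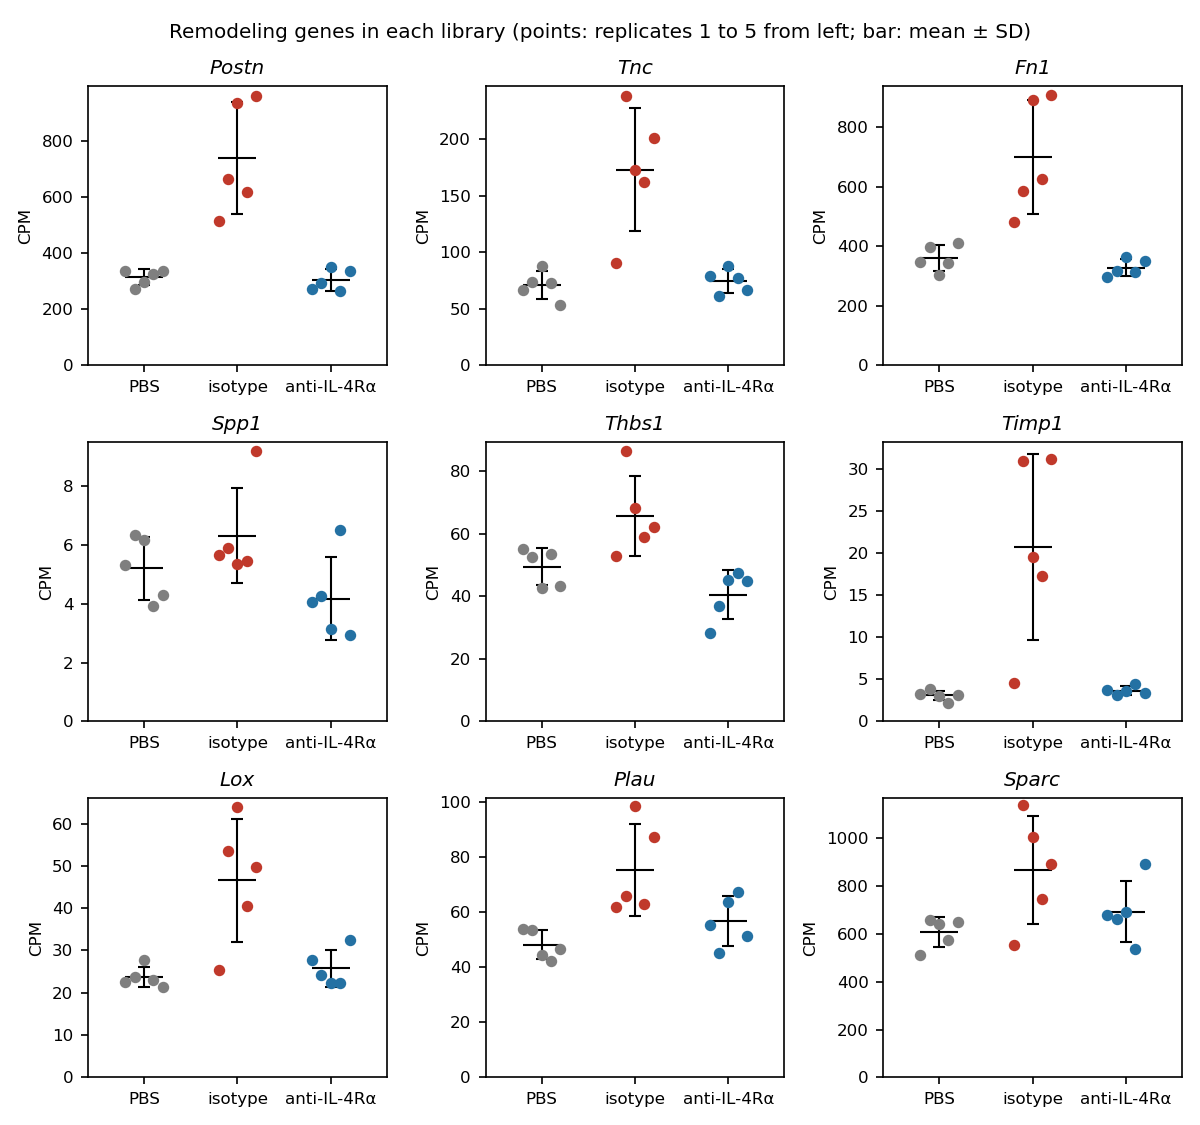
Level of each of the 9 genes in CPM (vertical axis, from 0) in the 5 libraries of the PBS, isotype and anti–IL-4Rα groups, with points for replicates 1 to 5 from left to right and bars for the mean ± SD. *Timp1* sits at 2.24 to 3.83 CPM in the PBS group and at 17.3 to 31.1 CPM in 4 of the 5 isotype libraries, with isotype replicate 1 at 4.62 CPM.

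To ask what ocular OVA changed, the isotype group was compared with the PBS group. Because no antibody is given for the PBS group, OVA and the isotype antibody cannot be told apart in this difference. It is called the OVA response below. Transcripts of 6 of the 9 genes rose, namely *Postn*, *Tnc*, *Fn1*, *Timp1*, *Lox* and *Plau*, and none fell (edgeR quasi-likelihood test, Benjamini-Hochberg adjusted p under 0.05 over 19006 genes). Of all genes tested, 9.53% rose and 7.49% fell by the same rule. For 5 of the 9 (*Postn*, *Tnc*, *Fn1*, *Timp1* and *Plau*), all isotype libraries were higher than all PBS libraries, which held for 6.85% of all genes. The median log2 fold change was 0.95 over the 9 genes and -0.01 over all genes. To ask what IL-4Rα blockade changed under the same challenge, anti–IL-4Rα and isotype libraries were compared. Here 6 of the 9 fell (*Postn*, *Tnc*, *Fn1*, *Thbs1*, *Timp1* and *Lox*) and none rose, against 8.13% of all genes that fell and 6.73% that rose. Every anti–IL-4Rα library lay below every isotype library for 5 of the 9 (*Postn*, *Tnc*, *Fn1*, *Thbs1* and *Timp1*) and for 4.96% of all genes, and the medians were -0.86 over the 9 and 0.01 over all genes. These comparisons share the isotype libraries, so the fall is not independent of the rise.

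**Figure D2:**
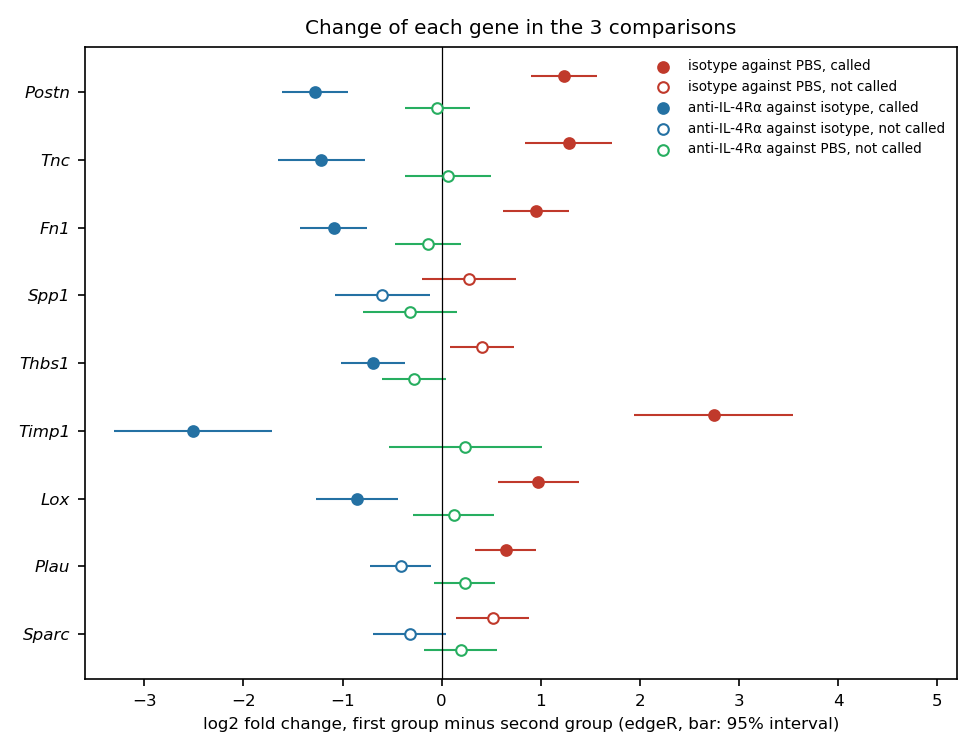
Log2 fold change of each gene (horizontal axis) with its 95% interval in the 3 comparisons, filled where the adjusted p is under 0.05 and open where it is not. All 9 points for isotype against PBS lie right of 0, all 9 for anti–IL-4Rα against isotype lie left of it, and all 9 intervals for anti–IL-4Rα against PBS include 0.

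Among the matricellular genes, *Postn*, which encodes a collagen- and integrin-binding protein of inflamed stroma, read 337, 272, 298, 327 and 336 CPM in PBS replicates 1 to 5. It read 517, 666, 936, 618 and 963 CPM in the isotype replicates, and 273, 295, 351, 267 and 338 CPM in the anti–IL-4Rα replicates. The isotype libraries lay apart from both other groups, which overlapped each other. *Postn* rose by 1.24 ± 0.16 on the log2 scale (SE, 2.36-fold, adjusted p = 0.000637) and fell by 1.28 ± 0.16 under anti–IL-4Rα (adjusted p = 0.000594). *Tnc*, whose product tenascin C loosens cell attachment to fibronectin and binds integrins, followed the same pattern with more spread. Its level was 67.1, 73.8, 87.6, 73.1 and 53.8 CPM in the PBS libraries, 90.4, 238, 173, 162 and 201 CPM in the isotype libraries, and 78.8, 61.0, 88, 77.7 and 66.8 CPM in the anti–IL-4Rα libraries. Isotype replicate 1, the lowest of its group, was only slightly above the highest library of each other group. *Tnc* rose by 1.28 ± 0.21 (2.43-fold, adjusted p = 0.00215) and fell by 1.21 ± 0.20 under the antibody (adjusted p = 0.0046).

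The other 3 matricellular genes moved less. *Thbs1* encodes thrombospondin-1, an inhibitor of blood vessel growth that also activates latent TGF-β, and it read 55.3, 52.5, 42.6, 53.6 and 43.3 CPM in the PBS libraries, 52.8, 86.5, 68.3, 58.9 and 62.2 CPM in the isotype libraries, and 28.3, 37.0, 45.4, 47.6 and 44.9 CPM in the anti–IL-4Rα libraries. Its highest PBS library and lowest isotype library crossed, and its log2 fold change of 0.41 ± 0.15 did not pass the test (adjusted p = 0.0742). Under anti–IL-4Rα it fell by 0.69 ± 0.15 (adjusted p = 0.0137), with no overlap between those groups. *Sparc* ranged from 512 to 658 CPM in PBS libraries, from 554 to 1138 CPM in isotype libraries and from 537 to 895 CPM in anti–IL-4Rα libraries, all overlapping. Its log2 fold changes were 0.52 ± 0.17 for isotype against PBS (adjusted p = 0.0539) and -0.32 ± 0.17 for anti–IL-4Rα against isotype (adjusted p = 0.203). *Spp1* encodes osteopontin, a cytokine-like ligand of CD44 and integrins that macrophages secrete in quantity. It read 3.94 to 6.33 CPM in the PBS libraries, 5.37 to 9.19 CPM in the isotype libraries and 2.95 to 6.5 CPM in the anti–IL-4Rα libraries, from 125 to 577 counts. Neither its difference of 0.28 ± 0.22 for isotype against PBS (adjusted p = 0.41) nor that of -0.60 ± 0.22 for anti–IL-4Rα against isotype (adjusted p = 0.0816) passed the test.

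*Fn1*, the gene of fibronectin, read 349, 399, 303, 344 and 410 CPM in the PBS libraries. It read 482, 586, 892, 627 and 908 CPM in the isotype libraries and 297, 317, 364, 313 and 351 CPM in the anti–IL-4Rα libraries. The isotype libraries were again separate from both other groups. *Fn1* rose by 0.95 ± 0.16 on the log2 scale (1.94-fold, adjusted p = 0.00238) and fell by 1.09 ± 0.16 under anti–IL-4Rα (adjusted p = 0.00184).

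Among the enzymes and inhibitors, *Timp1*, whose product blocks matrix metalloproteinases, changed most of the 9 genes. Its PBS libraries read 3.20, 3.83, 3.01, 2.24 and 3.13 CPM, its isotype libraries 4.62, 30.9, 19.5, 17.3 and 31.1 CPM, and its anti–IL-4Rα libraries 3.69, 3.09, 3.56, 4.47 and 3.4 CPM. Thus 4 isotype libraries stood far above all others, and the remaining one, replicate 1, lay just above them. *Timp1* rose by 2.75 ± 0.37 (6.71-fold, adjusted p = 0.000929), a larger log2 fold change than that of 99.6% of the genes tested, and fell by 2.51 ± 0.37 under anti–IL-4Rα (adjusted p = 0.00221). *Lox* encodes lysyl oxidase, which crosslinks collagen and elastin, and spans bases 52516067 to 52529867 of chromosome 18 on the minus strand. It read 22.6, 23.7, 27.7, 23.1 and 21.4 CPM in the PBS libraries, 25.4, 53.4, 63.9, 40.5 and 49.8 CPM in the isotype libraries, and 27.8, 24.1, 22.2, 22.4 and 32.5 CPM in the anti–IL-4Rα libraries. Isotype replicate 1 lay within the range of both other groups. *Lox* rose by 0.97 ± 0.19 (1.97-fold, adjusted p = 0.00603) and fell by 0.85 ± 0.19 (adjusted p = 0.0151). *Plau* encodes urokinase, which turns plasminogen into plasmin. Its level was 53.9, 53.5, 44.6, 42.3 and 46.5 CPM in the PBS libraries, 61.8, 65.9, 98.6, 62.8 and 87.4 CPM in the isotype libraries, and 55.3, 45.0, 63.6, 67.4 and 51.5 CPM in the anti–IL-4Rα libraries. The anti–IL-4Rα libraries overlapped both other groups. *Plau* rose by 0.65 ± 0.14 (1.56-fold, adjusted p = 0.0101), and its log2 fold change of -0.41 ± 0.14 under anti–IL-4Rα did not pass the test (adjusted p = 0.0654). The latter was called in 3 of 15 fits with 1 library left out.

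The anti–IL-4Rα group was then set against the PBS group, to ask what was left of the OVA response under blockade. By edgeR 0 of the 9 genes differed, 0 had an unadjusted p under 0.05, and DESeq2 and limma's voom also called 0, while edgeR called 3.72% of all genes in either direction. The log2 fold changes were above 0 for 5 genes and below 0 for 4. For *Postn* the difference was -0.04, with a 95% interval of -0.37 to 0.29, and for *Tnc* it was 0.07 (-0.37 to 0.50). *Fn1* differed by -0.14 (-0.47 to 0.20) and *Lox* by 0.12 (-0.29 to 0.53). The interval was widest for *Timp1*, at 0.24 (-0.54 to 1.01). For *Thbs1* it ran from -0.61 to 0.04, for *Spp1* from -0.80 to 0.16, for *Plau* from -0.07 to 0.54 and for *Sparc* from -0.18 to 0.56. Any difference within these intervals is compatible with the data from 5 libraries a group, so the lack of calls does not show equal levels.

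**Figure D3:**
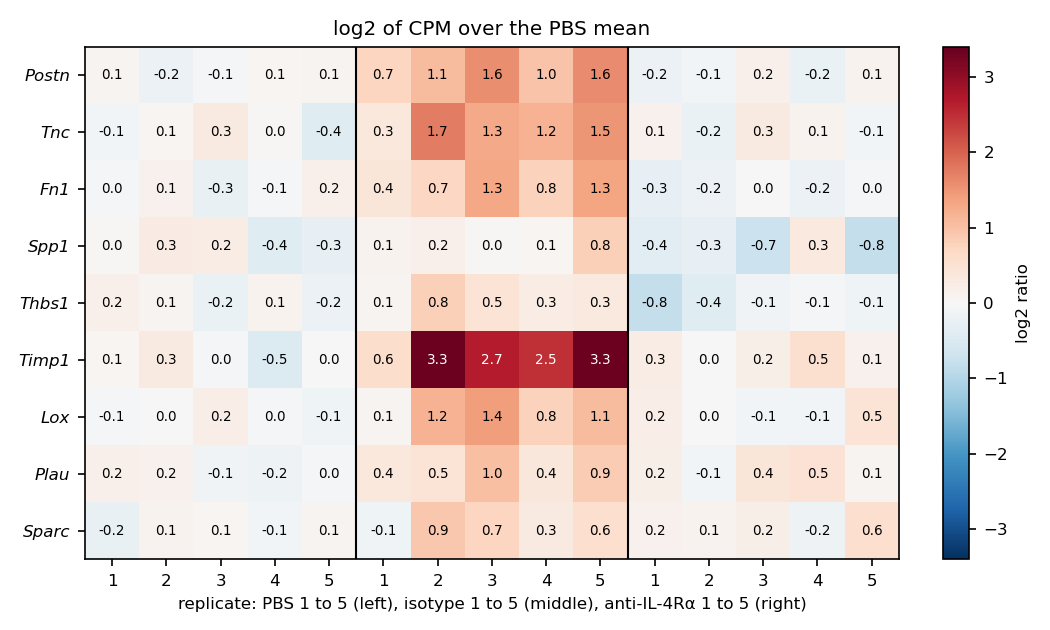
Log2 ratio of CPM to the mean of the PBS group for each gene (rows) in each of the 15 libraries (columns), red above and blue below the PBS mean. The isotype columns 2 to 5 lie above the PBS mean for all 9 genes, by as little as 1.03-fold for *Spp1* in replicate 3, and isotype column 1 is paler than the others for most genes.

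The SD in CPM was larger in the isotype group than in either other group for all 9 genes. Isotype replicate 1 was the lowest of its group for 8 of the 9 genes, *Spp1* being the exception. Its level over the PBS mean was 1.65-fold for *Postn*, 1.27-fold for *Tnc*, 1.34-fold for *Fn1*, 1.5-fold for *Timp1* and 1.28-fold for *Plau*, and at 1.07-fold for *Lox*, 1.07-fold for *Thbs1* and 0.913-fold for *Sparc* it lay within the PBS range. The highest isotype levels fell to replicate 5 for 4 genes, to replicate 2 for 3 and to replicate 3 for 2. Replicates 2 and 5 were at 10- and 10.1-fold for *Timp1*, but replicate 2 was at 2.12-fold and replicate 5 at 3.07-fold for *Postn*. Isotype replicate 1 also had 39842 CPM of lacrimal genes and the lowest fibroblast sum of its group. Without it, 8 of the 9 genes passed the test for the OVA response, and 8 of the 9 for blockade under OVA. Calls over all genes grew in the same fits, from 3235 to 3936 for the OVA response and from 2826 to 3811 for blockade. The gain was therefore not particular to the 9 genes. All 6 genes that rose and all 6 that fell kept their call in each of the 15 fits with 1 library left out.

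**Figure D4:**
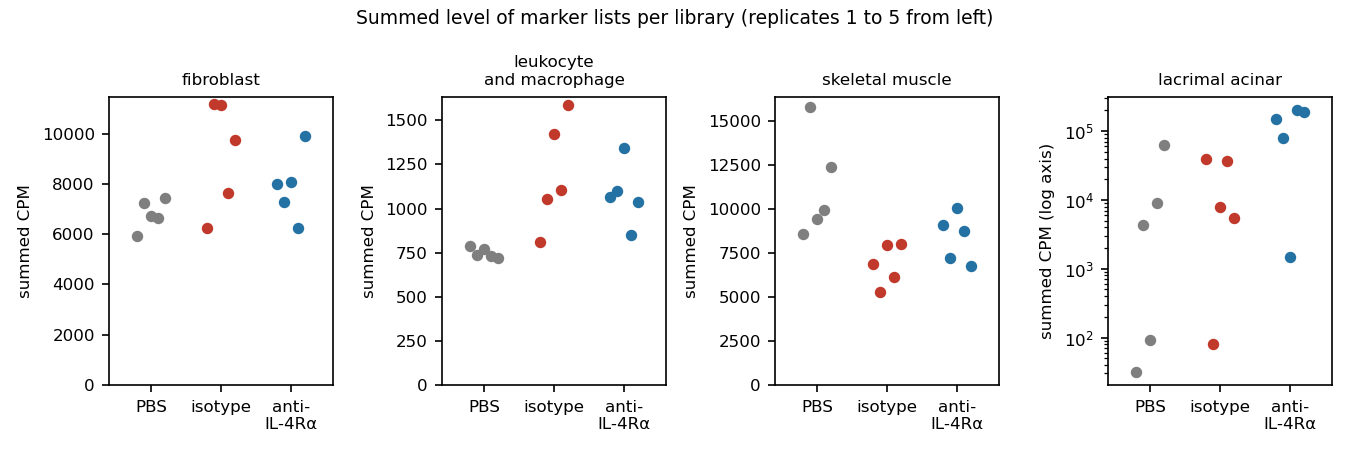
Summed CPM of 4 marker lists (vertical axes, a log axis for lacrimal acinar genes) in the 15 libraries, by group. The lacrimal sum is above 30000 CPM in 4 of the 5 anti–IL-4Rα libraries, and the leukocyte sum is above that of every PBS library in all isotype and anti–IL-4Rα libraries.

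Markers of other cells moved with the groups as well. Genes of leukocytes and macrophages summed to 720 to 787 CPM in PBS libraries, 810 to 1587 CPM in isotype libraries and 850 to 1343 CPM in anti–IL-4Rα libraries, and 9 of 13 rose in the isotype group, among them *Mrc1* (1.42 ± 0.23) and *Ccr2* (1.39 ± 0.25 on the log2 scale). Set against PBS, 5 of the same 13 genes were called higher under anti–IL-4Rα (*C1qa*, *C1qb*, *C1qc*, *Ccr2* and *Lyz2*). Of all genes, 3.72% were called in that comparison in either direction. The difference of *Ccr2* was 1.08 ± 0.24 and was called in 8 of 15 fits with 1 library left out. Of 11 skeletal muscle genes, 9 were lower in the isotype group than in the PBS group, with sums of 5266 to 8000 CPM against 8593 to 15789 CPM. Of 5 corneal genes 2 were lower, of 8 endothelial genes 1 rose and 1 fell, and the same held for 8 genes of smooth muscle and pericytes. Of 11 epithelial genes 1 rose (*Krt14*, 0.55 ± 0.11), and 0 of 10 lacrimal and 0 of 9 hair follicle genes passed the test, although isotype replicate 2 had 11135 CPM of the latter. Over all genes 9.53% rose and 7.49% fell for isotype against PBS, so single calls in these short lists are near that share. The part of these cells in the remodeling results was not tested beyond the values that follow.

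Lacrimal RNA was most abundant in the group in which the genes fell, so the levels were read again in the 8 libraries with less than 30000 CPM of it, a split chosen after seeing the data. Among those 4 PBS, 3 isotype and 1 anti–IL-4Rα libraries, the isotype libraries were all higher than the PBS libraries for 8 of the 9 genes. The share of all genes so separated was not computed. In that fit 8 of the 9 were called for isotype against PBS, as were 3327 of all genes in either direction. The 1 anti–IL-4Rα library, replicate 3, lay below all 3 isotype libraries for all 9 genes. For *Postn* it read 351 CPM against 666 to 963 CPM, for *Timp1* 3.56 CPM against 19.5 to 31.1 CPM, and for *Plau* 63.6 CPM against 65.9 to 98.6 CPM. The 9 values of that group come from 1 library, and the share of all genes with the same order was not computed. With 1 library only effect sizes are read, and the log2 fold changes by edgeR were -1.29 for *Postn* and -2.94 for *Timp1*. Whether lacrimal RNA had a part in the fall was not tested. A lacrimal score was also put in the model over all 15 libraries. Of the 9 genes, 8 were then called in the first comparison and 5 under anti–IL-4Rα, *Lox* being lost (-0.78, adjusted p = 0.0546). Calls over all genes went from 3235 to 4559 in the first comparison and from 2826 to 831 under anti–IL-4Rα.

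Since stromal proteins are made largely by fibroblasts, each gene was also expressed as a share of the summed CPM of 12 fibroblast genes, which include *Col1a1*, *Col1a2*, *Col3a1*, *Dcn* and *Pdgfra*. This comparison was added after seeing the data. The fibroblast sum was 5936 to 7459 CPM in PBS libraries, 6229 to 11180 CPM in isotype libraries and 6236 to 9913 CPM in anti–IL-4Rα libraries. Of its 12 genes 3 rose in the isotype group (*Col3a1*, *Col6a1* and *Fbn1*) and 1 fell (*Dcn*). *Col3a1* alone averaged 1716 CPM of a mean sum of 6800 CPM in the PBS group, and 2923 of 9192 CPM in the isotype group. The sum therefore follows collagen RNA and is not a count of fibroblasts. *Postn* made up 4.66% ± 0.709 of that sum in the PBS group, 8.12% ± 1.40 in the isotype group and 3.90% ± 0.461 in the anti–IL-4Rα group, with the isotype libraries apart from both others. *Tnc*, *Timp1* and *Lox* were also a larger share in the isotype group than in the PBS group, with log2 differences of 0.83, 2.10 and 0.51 (exact permutation tests, two-sided p = 0.00794, 0.00794 and 0.0159, or 0.0268, 0.0268 and 0.0477 after adjustment over 27 tests). *Fn1* differed by 0.52 (exact permutation p = 0.0317, adjusted 0.0713). Under anti–IL-4Rα the shares of *Postn*, *Tnc*, *Fn1*, *Timp1* and *Lox* were lower than in the isotype group, by log2 differences of -1.05, -0.96, -0.85, -2.05 and -0.60 (exact permutation p = 0.00794, adjusted 0.0268, for each). Against PBS, the *Fn1* share under anti–IL-4Rα differed by -0.335 (exact permutation p = 0.0238, adjusted 0.0643). *Sparc* had similar shares in all groups, at 8.93% ± 0.382, 9.41% ± 0.545 and 8.78% ± 0.296 (SD, n = 5, PBS, isotype and anti–IL-4Rα). Its share differed by -0.10 between anti–IL-4Rα and isotype (exact permutation p = 0.0476, adjusted 0.0989). *Sparc* closely followed *Col1a2* and *Col1a1* over the libraries (r = 0.969 and 0.967). Both are in the sum, so a steady share is partly built in. *Thbs1* was at 0.736% ± 0.14 in the PBS group, 0.728% ± 0.0999 in the isotype group and 0.529% ± 0.152 in the anti–IL-4Rα group, which differed from the isotype group by -0.50 on the log2 scale (exact permutation p = 0.0317, adjusted 0.0713). For *Plau* and *Spp1* no difference in share passed the exact permutation test in any of the comparisons.

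Among other genes of matrix turnover, the metalloproteinases moved most. Of 25 tested, 15 rose in the isotype group and 0 fell, with a median log2 fold change of 0.53, and 11 fell and 0 rose under anti–IL-4Rα, with a median of -0.42. By the same rule 9.53% of all genes rose and 7.49% fell in the isotype group, and 8.13% fell and 6.73% rose under anti–IL-4Rα. *Mmp13*, a collagenase, read 0.729, 1.05, 0.956, 0.497 and 0.351 CPM in the PBS libraries, 2.80, 12.7, 14.5, 17.0 and 20.7 CPM in the isotype libraries and 1.85, 1.54, 0.787, 0.865 and 0.921 CPM in the anti–IL-4Rα libraries. It rose by 4.23 ± 0.49 (adjusted p = 0.000375) and fell by 3.50 ± 0.47 (adjusted p = 0.00114). *Mmp10*, a stromelysin, was rarer, at 4 to 18 counts per PBS library, 14 to 289 per isotype library and 2 to 10 per anti–IL-4Rα library, with log2 fold changes of 3.99 ± 0.59 and -4.65 ± 0.63. *Mmp19* read 9.61 to 11.3, 13.5 to 52.3 and 12 to 16.3 CPM in the PBS, isotype and anti–IL-4Rα groups and rose by 1.73 ± 0.25. As for *Timp1*, isotype replicate 1 was the lowest of its group for *Mmp13*, *Mmp10* and *Mmp19*. In the plasminogen system and among protease inhibitors, where *Plau* and *Timp1* act, 2 of the 13 other genes rose and 2 fell. *Plaur*, the urokinase receptor, rose by 1.29 ± 0.26, but its difference of -0.33 ± 0.26 under anti–IL-4Rα did not pass the test (adjusted p = 0.383), as was the case for *Plau*. It read 3.04 to 4.61 CPM in the PBS libraries and 4.96 to 13.6 CPM in the anti–IL-4Rα libraries. That difference of 0.96 ± 0.26 was not called (edgeR, adjusted p = 0.0554). *Reck*, a membrane-bound metalloproteinase inhibitor, went the other way, with a fall of 0.54 ± 0.09 in the isotype group and a rise of 0.41 ± 0.09 under anti–IL-4Rα. *Timp3* moved like *Reck*, and *Serpine2* fell by 0.45 ± 0.14 under anti–IL-4Rα, which held in 5 of 15 fits with 1 library left out.

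Of 16 genes of collagen processing and crosslinking, the pathway of *Lox*, 8 rose and 1 fell in the isotype group, and 7 fell and 1 rose under anti–IL-4Rα. *P4ha3*, a collagen prolyl hydroxylase subunit, rose by 1.27 ± 0.21 and fell by 0.89 ± 0.21. *Plod2*, a collagen lysyl hydroxylase, rose by 0.76 ± 0.20 and fell by 0.91 ± 0.20. *Loxl2*, a relative of *Lox*, rose from a mean of 38.5 to 65.3 CPM (0.76 ± 0.14) and fell to 47.0 CPM (-0.47 ± 0.14), the fall being called in 7 of 15 fits with 1 library left out. The other matricellular genes were divided: of 27 tested, 5 rose and 4 fell in the isotype group, with a median log2 fold change of 0.13, and 2 fell under anti–IL-4Rα. Among all genes 9.53% rose and 7.49% fell in the isotype group. Under anti–IL-4Rα 8.13% of all genes fell, so 2 of 27 is near that share. *Tnn*, which encodes tenascin N, read 2.21 to 4.34 CPM in PBS libraries, 5.56 to 21.2 CPM in isotype libraries and 3.13 to 5.27 CPM in anti–IL-4Rα libraries, with a rise of 1.85 ± 0.29 and a fall of 1.65 ± 0.29. *Thbs2* rose by 0.60 ± 0.17 and *Spock2* fell by 0.73 ± 0.23 in the isotype group, calls that held in 9 and 6 of 15 fits with 1 library left out. *Efemp2* rose by 0.54 ± 0.12 and fell by 0.42 ± 0.12 under the antibody, the fall being called in 8 of those 15 fits.

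**Figure D5:**
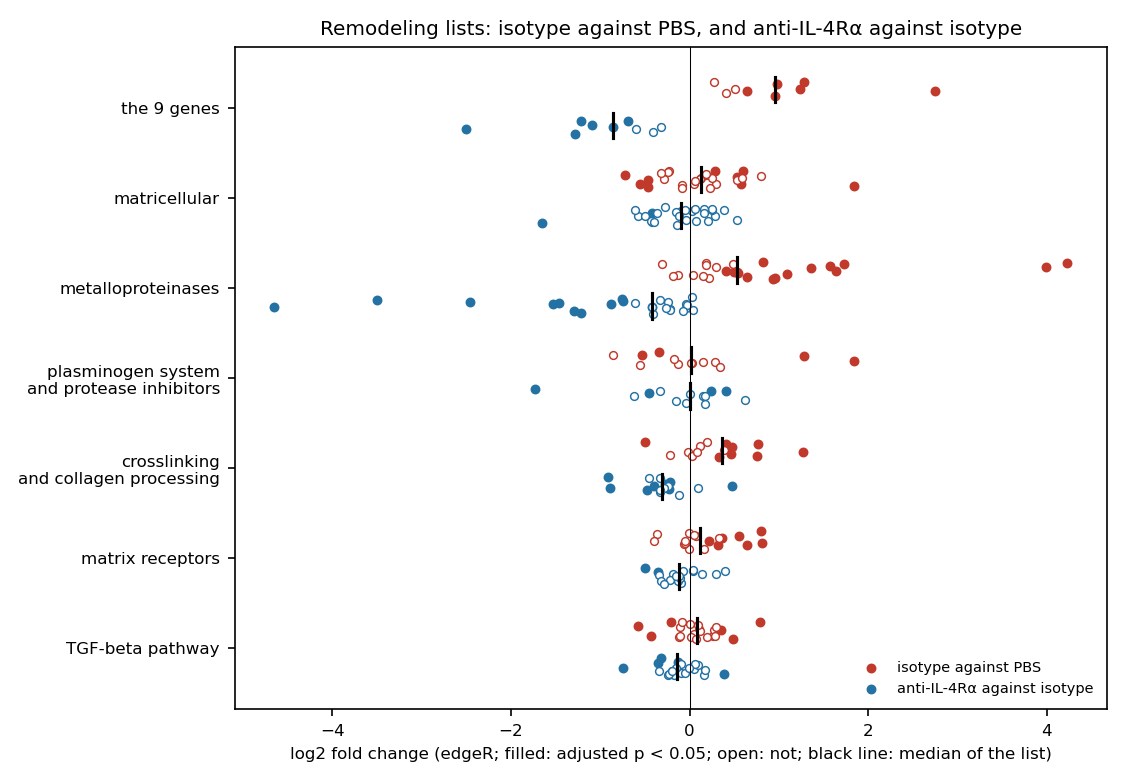
Log2 fold change (horizontal axis) of the 9 genes and of the tested genes in 6 remodeling lists, red for isotype against PBS and blue for anti–IL-4Rα against isotype, filled where the adjusted p is under 0.05, with a black line at each list's median. The metalloproteinases reach 4.23 and -4.65, and the medians of the plasminogen list lie at 0.02 and 0.01.

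Of 18 genes for receptors of matrix ligands 7 rose in the isotype group and 0 fell, and 2 fell under anti–IL-4Rα. *Cd44*, a receptor of osteopontin and hyaluronan, rose by 0.56 ± 0.15 and fell by 0.50 ± 0.15, calls that held in 13 and 9 of 15 fits with 1 library left out. *Itga5*, a subunit of the fibronectin receptor, rose by 0.32 ± 0.10 and fell by 0.35 ± 0.10, each held in 8 of those 15 fits. *Itgb2* (0.82 ± 0.19) and *Itga4* (0.80 ± 0.18), both integrin subunits of leukocytes, rose in the isotype group. Under anti–IL-4Rα *Itga4* was higher than in the PBS group, by 0.84 ± 0.18 (adjusted p = 0.0316, called in 8 of 15 such fits). *Itgb3*, a subunit that binds several of these ligands, rose by 0.64 ± 0.13. Of 22 TGF-β pathway genes 3 rose and 3 fell, and under anti–IL-4Rα 4 fell and 1 rose. The shares of all genes were 9.53% and 7.49% in the isotype group, and 8.13% and 6.73% under anti–IL-4Rα. With lists this short, the 2 receptor genes that fell and the TGF-β counts are not read as results about these lists. *Inhba*, which encodes an activin subunit, rose by 0.80 ± 0.16 and fell by 0.75 ± 0.16. *Tgfb1* rose by 0.48 ± 0.10, and its fall of 0.32 ± 0.10 (adjusted p = 0.0471) was called in 3 of 15 such fits. *Ltbp4*, a binding protein of latent TGF-β, fell by 0.57 ± 0.09 and rose by 0.39 ± 0.09. For anti–IL-4Rα against PBS, 3.72% of all genes were called in either direction. Over the 6 lists that comparison gave 3 calls among 121 genes, no more than that share, namely *Adam8* and *Itga4* higher and *Mmp12* lower. That count fell to 0 when any of PBS replicates 1, 2 and 4 or of anti–IL-4Rα replicates 1, 2 and 5 was omitted, and was 1 without anti–IL-4Rα replicate 4 and 5 without anti–IL-4Rα replicate 3 or isotype replicate 1. The 32 calls for anti–IL-4Rα against isotype over these lists became 15 to 19 when any of isotype replicates 2, 3 and 5 or of anti–IL-4Rα replicates 1, 2, 4 and 5 was left out, and 52 without isotype replicate 1.

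The genes most like each member across the 15 libraries are given by Pearson's r of log2 CPM, which includes the differences between the groups, and by r after centering each group, both as descriptions over libraries that share their group and their tissue makeup. *Sparc* lay closest to collagens, with r = 0.975 for *Col5a1*, 0.969 for *Col1a2* and 0.967 for *Col1a1*, and 0.973, 0.972 and 0.959 after centering. *Timp1* lay closest to *Mmp19* (0.968, centered 0.913). *Postn* and *Fn1* shared *Tnfaip6*, which encodes a hyaluronan-binding protein (0.968 and 0.976), and *Col6a6* (0.971 and 0.963), and *Postn* was also close to the chitinase-like gene *Chil4* (0.962). *Tnc* was nearest to *Galnt6* and *Selp* (both 0.96), and *Lox* to *Vipas39* (0.964), *Col5a2* (0.957) and *Adam12* (0.955). *Plau* was nearest to *Nfkb1* (0.951) and *Thbs1* to *Ammecr1* (0.953). The highest r for *Spp1* was lower, at 0.866 for AC132148.1 and 0.84 for *Mrgpra2b*. Within the 9 genes the pairs with the highest r were *Postn* with *Fn1* (0.969, centered 0.849) and *Tnc* with *Timp1* (0.957, centered 0.822). *Lox* with *Sparc* was at 0.87 and stayed at 0.85 after centering, whereas *Postn* with *Tnc* went from 0.875 to 0.392 after centering.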

How the data were processed

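The authors deposited estimated counts per gene (expected counts, which need not be whole) for 15 RNA-Seq libraries of conjunctiva, made per the methods from polyA-selected RNA by quality filtering (Q score of 20) and unique mapping of read pairs to the B38 mouse genome with the Ensembl release 100 gene model in Omicsoft Array Studio. How that software counted reads, whether it used strand and its version are not given in the sources used here (the labels name a stranded kit). The deposited counts are unscaled and unpooled, and were rounded to whole numbers for testing. The methods mention outlying samples without naming them, and the study's RNA-Seq figures give fewer libraries for some groups. All 15 libraries were kept here, so those figures and these values may rest on different libraries. Of 55487 identifiers, 55227 matched a symbol in GENCODE M21 (Ensembl release 96) and 260 did not.

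The 19006 genes that reached 10 counts in 5 or more libraries were tested in edgeR 4.0.16 (R 4.3.3, TMM factors, 1 quasi-likelihood model with a term per group, two-sided, Benjamini-Hochberg adjustment over all genes tested per comparison). A gene was called, or said to rise or fall, at an adjusted p under 0.05 with no limit on fold. SEs were derived from the F statistic of each fold change, and intervals are 95%. Log2 CPM uses a prior count of 2. FPKM divides CPM by union exon length. Exact permutation tests cover 252 splits of 10 libraries, with a smallest p of 0.00794. The 9 genes held from 117 (*Timp1*) to 111213 (*Sparc*) counts per library. The steps were checked on simulated data.

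The 9 genes, the 6 remodeling lists and the 9 marker lists were chosen with earlier results of these data known. Named were all 9 genes, up to 3 called list genes with the largest change in isotype against PBS and up to 2 in anti–IL-4Rα against isotype per list, and the 3 genes most like each member; *Adam8*, *Mmp12*, *Timp3*, *Dcn*, *Lyz2* and the 3 *C1q* genes were named after their values were seen, and 1 gene that the rule names is not reported here. Of 215 list genes other than the 9, 214 were found. Alternatives used DESeq2 1.42.0 and limma 3.58.1 (voom with quality weights, and log2(CPM + 1), log2(CPM + 0.1) and log2(FPKM + 1)). Motifs were searched on both strands, and protein sequences were not used here. Tables and plots used Python 3.11.15, pandas 2.3.3, scipy 1.17.1 and matplotlib 3.10.9.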

Additional observations from a re-analysis of the deposited data

Results flagged for a closer look

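Of 27 groups of 5 libraries (9 genes in 3 groups), 1 held a value far from the others by Dixon's test at the 95% level, which chance gives in about 1 group in 20. It was *Spp1* in isotype replicate 5, at 9.19 CPM, while its companions in the group read 5.37 to 5.90 CPM, a gap of 0.86 of the group's range. Leaving out that library did not end any call among the 9 genes, and *Spp1* was not called for isotype against PBS with or without it.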

How the results depend on the processing

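Calls of members numbered 6 in each of isotype against PBS and anti–IL-4Rα against isotype, and became 5 to 8 and 5 to 8 over the 13 other planned settings, and 6 to 8 and 6 to 8 with 1 library left out. Over 756 planned member values 3 lost a call, all of *Lox*: isotype against PBS with a skeletal muscle score as covariate (0.90, adjusted p = 0.112), and anti–IL-4Rα against isotype in a fit of those groups alone (-0.85, adjusted p = 0.0575) or with a lacrimal score (-0.78, adjusted p = 0.0546). Of the same values 20 gained a call. By DESeq2 these included *Sparc* (adjusted p = 0.0169) and *Thbs1* (0.0369) for isotype against PBS, and *Plau* (0.0316) and *Spp1* (0.041) for anti–IL-4Rα against isotype. *Plau* was also called in the latter comparison by voom (adjusted p = 0.0315) and by edgeR with a skeletal muscle score (0.0417). The settings chosen after seeing the data changed more. With a fibroblast score, *Plau* lost its call (0.52, adjusted p = 0.0641). Among only the libraries above 30000 lacrimal CPM, which hold 1 PBS and 2 isotype libraries, 0 members were called in either of these comparisons, and without those libraries 0 were called for anti–IL-4Rα against isotype, where 1 anti–IL-4Rα library is left and is assumed to vary like the others; fewer libraries enter these fits. The cause of the other changes was not tested.

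Directions that turned were mostly those near 0 in anti–IL-4Rα against PBS: *Postn* with a lacrimal (0.0028) or muscle score (0.0024) and without the lacrimal-rich libraries (0.20), *Tnc* with a fibroblast score (-0.029) and relative to the fibroblast list (-0.13), *Fn1* with a muscle score (0.065) and without the lacrimal-rich libraries (0.073), *Spp1* in only those (0.042), *Lox* with a fibroblast score (-0.030), relative to the list (-0.093) and without the lacrimal-rich libraries (-0.12), and *Sparc* relative to the list (-0.025). With 1 library left out, *Postn* ran from -0.10 to 0.0011 and *Tnc* from -0.018 to 0.15. Elsewhere, *Sparc* turned in anti–IL-4Rα against isotype (0.080) and *Itga5* in isotype against PBS (-0.094) in only the lacrimal-rich libraries. In isotype against PBS, *Des* turned with a muscle score (0.12), and *Spp1* (-0.13) and *Thbs1* (-0.0047) turned relative to the fibroblast list.

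Counts over all genes moved more than those over the 9. For isotype against PBS, 3235 genes were called, 493 with a muscle score, 1172 with a fibroblast score, 2115 with the replicate block, 0 in only the lacrimal-rich libraries and 1863 to 3936 with 1 library left out. For anti–IL-4Rα against isotype, 2826 became 1749 without the filter, 675 in those groups alone, 1859 with the block, 831 with a lacrimal, 1431 with a muscle and 1295 with a fibroblast score, 1 without and 48 in only the lacrimal-rich libraries, and 882 to 4206 with 1 library left out. For anti–IL-4Rα against PBS, 707 became 1966 by DESeq2, 2318 by voom, 469 on log2(CPM + 1), 332 on log2(CPM + 0.1), 327 without the filter, 312 with the block, 75 with a lacrimal and 75 with a muscle score, 21 without and 1 in only the lacrimal-rich libraries, and 82 to 2029 with 1 library left out.

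In the 6 remodeling lists, 50 calls for isotype against PBS became 19 with a muscle and 29 with a fibroblast score and 0 in only the lacrimal-rich libraries. For anti–IL-4Rα against isotype, 32 became 21 on log2(CPM + 0.1), 11 in those groups alone, 11 with a lacrimal and 19 with a fibroblast score, 0 without and 0 in only the lacrimal-rich libraries, and 15 to 52 with 1 library left out. For anti–IL-4Rα against PBS, 3 became 9 by DESeq2, 9 by voom, 1 on log2(FPKM + 1), 1 on log2(CPM + 0.1), 5 in those groups alone, 1 with the block, 0 with a lacrimal, 0 with a muscle score and 0 without or in only the lacrimal-rich libraries, and 0 to 5 with 1 library left out.

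The groups share replicate numbers in the labels. Over 15 pairs of same-numbered libraries the correlation of deviations from the group means was -0.385 to 0.454, above 0.1 in 4, and 4 of 15 libraries were closest to one of their own number. Tissue makeup also varied between libraries, so these values cannot show whether same-numbered samples share a cage, day or batch. With the replicate number as a block, 7 members were called for isotype against PBS, *Sparc* being added (0.49, adjusted p = 0.0467), 6 for anti–IL-4Rα against isotype and 0 for anti–IL-4Rα against PBS.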
